A study of Homo sapiens with 6 samples.

Results

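The uninduced state of Hs578T cells was described from the 2 arrays taken at 0 h, out of 6 arrays in the series. Hs578T is an established human breast cancer line, derived from a carcinosarcoma, and the derivative used here carries an inducible HOXA5 gene. Both arrays hold total RNA of cells that were seeded on a 10 cm dish 24 h before the time of induction and were not induced. One array comes from experiment 1 and the other from experiment 2, which the labels describe as separate batches of RNA. The labels do not say whether these were separate cultures, so the spread between the arrays may be technical. Not given in the sources used here are the inducing agent and whether the derivative is 1 clone. The probe table names HOXA5 for 0 probe sets, and the level of that gene is not reported. The members were chosen by title alone, as the arrays of experiments 1 and 2 at 0 h, and no value was used to choose them.

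Breast cancers keep traces of the cell layers of the gland. Luminal cells line the duct and carry hormone receptors and simple keratins, basal or myoepithelial cells lie beneath them and carry stratified keratins, and both are held together by E-cadherin, claudins and desmosomes. In the epithelial to mesenchymal transition these junction genes are repressed by factors of the ZEB, SNAI and TWIST families, while vimentin, N-cadherin, fibronectin and collagens are expressed. Hs578T is commonly placed among the mesenchymal, claudin-low breast lines and carries an activating HRAS mutation.

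Each value below is the percentile of a probe set within its own array, that is, its position among the 22215 probe sets that are not Affymetrix controls, from 0 (dimmest) to 100 (brightest). Such a position does not depend on the overall brightness of an array, which differed (median intensity 95.8 in experiment 1 and 49.1 in experiment 2). Probe sets differ in how well they bind, so a percentile places a probe set within the array and is no measure of transcript number between genes. A gene with several probe sets is represented by the one with the highest mean percentile of the 2 arrays. Over the 11963 genes so represented, the percentiles of the 2 arrays differed by a median of 4.40 points. That median was 2.17 points for the 3594 genes with a mean percentile of at least 75 and 6.38 points for the 5152 genes with a mean below 50. The ratio of 3' to 5' signal, a sign of RNA quality, was 0.863 and 0.975 for GAPDH and 1.09 and 1.04 for ACTB in experiments 1 and 2. With 1 group of 2 arrays there is no contrast to test, and no p-value is given. In pairs of values the first is experiment 1 and the second experiment 2.

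The files hold no detection calls. As a reference for dim probe sets, 112 genes restricted to liver, red cells and platelets, leukocytes, endothelium, nerve and glia, striated muscle or other organs were ranked in the same way. Their median percentile was 27.4 and 26.7, against 56.8 and 57.0 for all genes. Of the 112 genes, 0 lay at or above percentile 75 in both arrays, a position held by 27.0% of all genes, and 96 lay below 50 in both, against 38.9% of all genes. The 90th percentile of the group stood at 53.8 in experiment 1 and 51.3 in experiment 2. A gene over both limits is called above the tissue-restricted range below, as 50.6% of all genes were. The defining leukocyte gene PTPRC lay at 28.3 and 17.4, the endothelial genes CDH5 and PECAM1 at 9.0 and 0.6 and at 45.9 and 48.1, and the hepatic ALB at 27.9 and 25.1. The beta-globin gene HBB was brighter, at 62.1 and 59.6. FABP4, a fatty acid carrier of adipocytes, differed most, with 1385.4 intensity units in experiment 1 and 25.6 in experiment 2 (percentiles 94.8 and 37.2), while the adipocyte genes ADIPOQ and PLIN1 lay at 29.4 and 19.6 and at 14.3 and 21.4.

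The marker genes placed the cells on the mesenchymal side. VIM, the intermediate filament of mesenchymal cells, read 8005.9 and 7698.1 intensity units, 83.6 and 157 times the array median, and lay at percentiles 99.5 and 99.8. FN1, the matrix protein fibronectin, lay at 99.2 and 98.9, and CD44, the hyaluronan receptor, at 98.4 and 99.0. CDH2, N-cadherin, lay at 88.3 and 82.5. EGFR, the epidermal growth factor receptor, lay at 93.6 and 95.3. Both arrays placed these 5 genes at or above 75. The other markers were much dimmer. CDH1, E-cadherin, read 31.1 and 3.7 intensity units and lay at 27.5 and 10.7, below the tissue-restricted limit in both arrays. ESR1, the oestrogen receptor, lay at 42.1 and 51.5, and ERBB2, the receptor HER2, at 64.3 and 49.7. The ERBB2 values straddle the median of the array. In bulk RNA, fewer cells with a transcript and less of it per cell cannot be told apart.

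**Figure D1:**
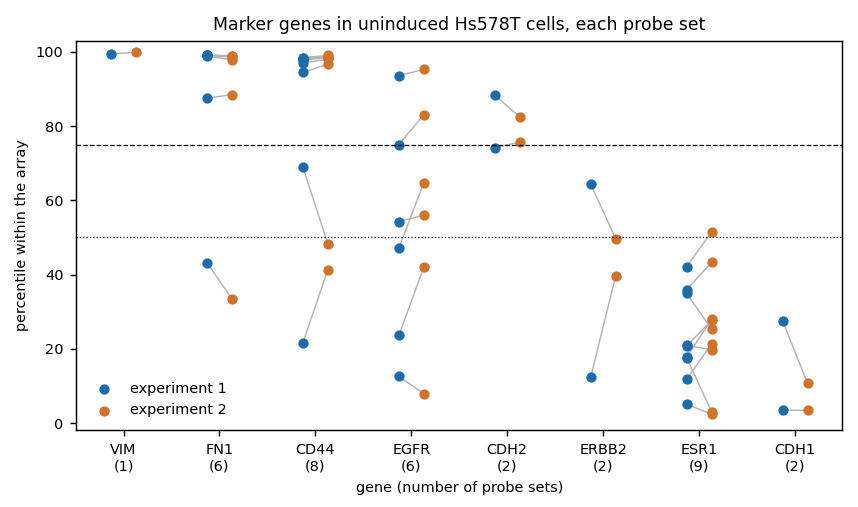
Percentile within the array (vertical axis, 0 to 100) of every probe set of the 8 marker genes, blue for experiment 1 and orange for experiment 2, with lines joining the same probe set; the dashed and dotted lines mark percentiles 75 and 50. VIM, FN1, CD44, EGFR and CDH2 have probe sets at or above 75 in both arrays, while those of CDH1 lie between 3.4 and 27.5.

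The probe sets of a gene did not all agree. Of the 8 probe sets of CD44, 6 lay at or above 75 in both arrays and 1 below 50 in both, and of the 6 of FN1, 5 and 1 did. EGFR was split, with 2 of its 6 probe sets at or above 75 in both arrays and 2 below 50 in both, and the median over its probe sets was 55.5. For ESR1, 8 of 9 probe sets lay below 50 in both arrays and 0 reached 75 in both. Both CDH1 probe sets were below 50, the dimmer at 3.5 and 3.4. Among all 4310 genes with several probe sets, 511 had 1 set at or above 75 and another below 50 in both arrays.

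The mesenchymal list was bright as a group. Of its 32 genes 24 lay at or above percentile 75 in both arrays, against 27.0% of all genes, and its median was 92.8 in experiment 1 and 90.1 in experiment 2. LGALS1, a galactoside-binding lectin, lay at 99.6 and 99.7, ANXA2, a membrane-binding annexin, at 99.7 and 99.6, and S100A6, a calcium-binding protein, at 99.4 and 99.5. ANXA1, another annexin, lay at 99.0 and 98.9. These differences between arrays were below the 2.17 points that were usual for bright genes. The mesenchymal cadherin CDH11 lay at 95.7 and 86.0. The 3 dimmest members were TAGLN, CNN1 and FAP. TAGLN, an actin-binding protein of smooth muscle, lay at 12.9 and 11.6, CNN1, a smooth muscle calponin, at 11.2 and 9.1, and FAP, a fibroblast surface protease, at 12.1 and 7.9. ACTA2, smooth muscle actin, was intermediate at 69.1 and 67.2, with 1 of its 2 probe sets below 50 in both arrays. Other contractile genes, chosen after their values were seen, were bright. Smooth muscle genes were not ranked as a list of their own. On their brightest probe sets TPM1, TPM2 and CALD1 had mean percentiles of 97.9, 92.3 and 93.2. Below 50 in both arrays were 1 of the 2 probe sets of TPM2 and 3 of the 8 of CALD1. Hence 3 of the 32 members lay below 50 in both arrays. S100A4, a calcium-binding protein often used as a fibroblast marker, differed by the most, at 56.1 and 33.2, followed by the laminin-binding integrin chain ITGA3 at 87.9 and 73.9.

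Of 39 genes of the matrix and its remodelling, 26 lay at or above 75 in both arrays (66.7%, against 27.0% of all genes). The list's median was 92.2 in experiment 1 and 83.8 in experiment 2. COL6A3, a chain of the microfibril collagen VI, lay at 98.8 and 98.5, COL1A2, a chain of fibrillar collagen I, at 98.7 and 96.3, and the collagen-binding SPARC at 98.3 and 95.5. TIMP1, an inhibitor of metalloproteinases, lay at 97.8 and 97.6. Among the proteinases the readings were spread over the array. MMP2, a gelatinase, lay at 96.4 and 92.4 and the membrane-bound MMP14 at 78.5 and 80.5, whereas the interstitial collagenase MMP1 lay at 0.8 and 0.7 and the stromelysin MMP3 at 9.8 and 39.9. THBS2, a thrombospondin, lay at 33.3 and 40.7.

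Of the 15 factors of the transition with a value, 4 lay at or above 75 in both arrays and 8 above the tissue-restricted range. These shares, 26.7% and 53.3%, are close to the 27.0% and 50.6% of all genes. ZEB1, a repressor of CDH1, read 726.4 and 493.2 intensity units and lay at 89.5 and 91.3; its other probe sets lay at 67.8 and 79.9 and at 61.8 and 74.2. SNAI2, also known as Slug, lay at 73.3 in each array and ZEB2 at 60.0 and 58.0. TWIST1 lay at 54.3 and 48.7 and SNAI1 at 45.4 and 45.3, so that 1 or both of their readings fell inside the tissue-restricted range. PRRX1, a mesenchymal homeobox factor, lay at 78.4 and 80.8 and SOX9, a factor of cartilage and progenitor cells, at 89.8 and 86.8. HMGA2, an architectural chromatin protein, lay at 68.5 and 69.9. TCF3, which encodes the E2A factors, lay at 90.1 and 89.5, but 6 of its 13 probe sets were below 50 in both arrays. TCF4, its relative, lay at 39.1 and 33.9 with all 7 of its probe sets below 50. ETS1, FOXC2 and MSX1 lay near the middle of the array, at 50.8 and 51.4, 51.2 and 57.0, and 56.6 and 51.1. SOX4 lay at 81.8 and 74.1, and MSX2, a homeobox factor, at 18.4 and 34.5.

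Genes of epithelial adhesion and polarity, a list that holds more than junction genes, were dim as a group. Of 26 with a value, 21 lay below 50 in both arrays (80.8%, against 38.9% of all genes). Above the tissue-restricted range were 3 (11.5%, against 50.6%), and 2 lay at or above 75 in both (7.7%, against 27.0%). The list's median was 23.2 and 23.4, lower than the 27.4 and 26.7 of the tissue-restricted genes. Claudins seal tight junctions: CLDN3 lay at 14.9 and 5.7, CLDN4 at 18.5 and 10.4 and CLDN7 at 14.4 and 14.5. EPCAM, an epithelial adhesion molecule, lay at 21.9 and 19.2, CDH3, P-cadherin, at 12.2 and 13, and ESRP1, a splicing regulator of epithelia, at 14.9 and 17.7. The 2 exceptions were TJP1, the scaffold ZO-1 that many cell types make, at 90.5 and 92.6, and the desmosomal plakophilin PKP3 at 80.8 and 75.9. MUC1, a membrane mucin, was the third above the range, at 64.9 and 52.2. The tight junction genes CLDN1 and OCLN lay at 55.3 and 37.1 and at 49.8 and 42.9, and TJP3, the scaffold ZO-3, at 21.7 and 0.7. JUP, plakoglobin, lay at 38.2 and 14.8 and CDS1, a lipid enzyme enriched in epithelia, at 6.8 and 31.3, the largest differences of the list, both within the dim part of the array.

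The promoters of 2 genes of the epithelial list are shown with E-box letters marked, since ZEB and SNAI factors are known to bind such letters. The letters searched were CAGGTG on either strand, whose reverse complement is CACCTG, in the 250 bases before the RefSeq start on GRCh38.p14. Of 27305 promoters 17.5% held them. Among the promoters found for the epithelial list 10 of 17 did, and 3 of 25 did for the mesenchymal list. Of the epithelial members below 50 in both arrays 6 of 12 held them, and of those not below 50 in both 3 of 4 did, TJP1, MUC1 and ELF3. The last of the 10 is CRB3, which had no value here. The dim CLDN3, CLDN4, CLDN7, JUP, SPINT1 and TJP3 had 0 matches. DSP encodes the desmosomal plaque protein desmoplakin and lay at 30.8 and 30.7; AP1M2 encodes a sorting adaptor of polarised epithelia and lay at 40.5 and 24.4. The window of DSP is chr6:7541421-7541670 on the plus strand and holds 2 matches, and that of AP1M2 is chr19:10587313-10587562 on the minus strand and holds 3. Capitals mark the matches, which are letters in a window and not measured binding.
DSP: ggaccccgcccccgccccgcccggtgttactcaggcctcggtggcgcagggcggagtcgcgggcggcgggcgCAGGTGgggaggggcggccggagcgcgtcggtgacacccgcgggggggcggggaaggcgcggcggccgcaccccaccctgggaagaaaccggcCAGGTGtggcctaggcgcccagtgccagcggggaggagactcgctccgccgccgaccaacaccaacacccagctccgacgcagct
AP1M2: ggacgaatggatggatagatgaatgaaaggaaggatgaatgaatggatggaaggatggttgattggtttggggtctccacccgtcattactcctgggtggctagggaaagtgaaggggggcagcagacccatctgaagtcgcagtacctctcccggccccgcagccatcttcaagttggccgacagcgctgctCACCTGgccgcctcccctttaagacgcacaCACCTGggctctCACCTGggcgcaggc

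Of 24 genes of the luminal layer with a value, 4 lay at or above 75 in both arrays (16.7%, against 27.0% of all genes) and 11 below 50 in both (45.8%, against 38.9%). The bright members were KRT18, a keratin of simple epithelia, at 99.2 and 95.8 (6205.5 and 956 intensity units), the carbonic anhydrase CA12 at 95.7 and 91.4, the zinc transporter SLC39A6 at 93.7 and 93.2, and XBP1, a factor of the secretory pathway, at 90.5 and 93.2. KRT18 was measured by 1 probe set, of the kind that can bind related sequences. Its usual partner KRT8 was much lower in the array, at 59.9 and 52.4, and KRT19 and KRT7 lay at 2.3 and 1.4 and at 32.5 and 32.5. The hormone axis was dim. PGR, the progesterone receptor, read 1.6 and 0.9 intensity units and lay at 0.5 and 1.2, FOXA1, a pioneer factor for oestrogen receptor binding, at 36.1 and 37.0, and the oestrogen-induced TFF1 and GREB1 at 29.7 and 26.0 and at 31.4 and 32.0. AGR2, a secretory protein of luminal cells, lay at 1.9 and 4.4. GATA3, the luminal lineage factor, lay at 71.6 and 70.5 on its brightest probe set, while the other 2 lay below 50 in both arrays. SPDEF, an ETS factor of luminal cells, differed most, at 67.4 and 40.0. The melanosome adaptor MLPH lay at 79.2 and 73.2 and the acetyltransferase NAT1 at 61.1 and 69.0, both above the tissue-restricted range. MYB, a transcription factor, lay at 36.9 and 51.7 and SCUBE2, a secreted protein, at 36.5 and 36.9. TFF3, a trefoil peptide, lay at 39.9 and 44.4, and PRLR, the prolactin receptor, at 24.3 and 21.2.

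Of 14 basal and myoepithelial genes with a value, 9 lay below 50 in both arrays (64.3%, against 38.9% of all genes) and 2, EGFR and ITGA6, at or above 75 in both. ITGA6, a laminin-binding integrin chain, lay at 86.4 and 88.2, while its hemidesmosome partner ITGB4 lay at 30.0 and 43.3. The stratified keratins KRT5, KRT14, KRT15 and KRT16 lay at 30.3 and 20.8, 23.8 and 24.7, 25 and 31.4, and 3.8 and 6.8. SERPINB5, a serpin of myoepithelial cells, lay at 13.1 and 14.5 and the desmosomal cadherin DSG3 at 38.4 and 16.8. LAMB3, a laminin chain, was above the tissue-restricted range at 56.6 and 67.6. MME, the surface peptidase CD10, lay at 58.5 and 38.9, and TRIM29, a tripartite motif protein, at 43.9 and 54.6. The WNT antagonist SFRP1 and the small heat shock protein CRYAB lay at 42.6 and 47.8 and at 47.3 and 46.6. A further 8 listed genes had no value here and were not analysed.

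**Figure D2:**
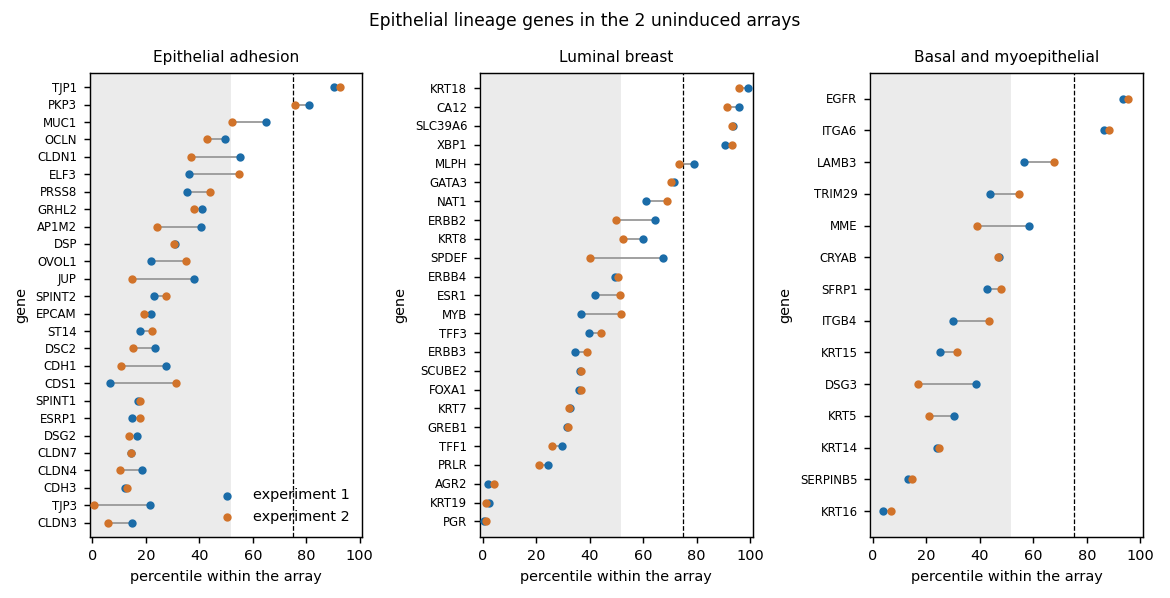
Percentile within the array (horizontal axis) of the epithelial adhesion, luminal and basal genes (vertical axes, ordered by mean), blue for experiment 1 and orange for experiment 2; grey marks percentiles up to the lower of the 2 tissue-restricted limits (51.3) and the dashed line percentile 75. Most genes of the 3 panels lie in the grey area, with KRT18, CA12, SLC39A6, XBP1, EGFR, ITGA6, TJP1 and PKP3 at or above 75 in both arrays.

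Of 12 stem-like and drug-handling genes 4 lay at or above 75 in both arrays (33.3%, against 27.0% of all genes). Besides CD44 and ITGA6 these were ALDH1A3, an aldehyde dehydrogenase, at 86.7 and 87.5, and KLF4, a factor of pluripotent and epithelial cells, at 82.4 and 92.6. ALDH1A1 lay at 35.0 and 3.4, PROM1, which encodes CD133, at 15 and 20.3, and the WNT receptor component LGR5 at 16.7 and 25. ABCC1, a drug exporter, lay at 84.4 and 71.6 and NES, the intermediate filament nestin, at 44.9 and 20.7. CD24, a surface glycoprotein, lay at 72.9 and 65.2 on its brightest probe set. Of its 6 probe sets, 0 lay at or above 75 and 3 below 50 in both arrays. The CD44 pair lay above the CD24 pair in each array, on different probe sets.

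Of 40 receptor tyrosine kinases with a value, 6 lay at or above 75 in both arrays (15%, against 27.0% of all genes), 14 above the tissue-restricted range (35%, against 50.6%) and 21 below 50 in both (52.5%, against 38.9%). AXL, the receptor for GAS6, had the highest position, with 2506.8 and 1664.5 intensity units and percentiles of 97.5 and 97.8. EGFR (93.6 and 95.3) and MET, the receptor for hepatocyte growth factor (93.6 and 94.5), followed, and their values overlap. EPHA2, an ephrin receptor, lay at 92.5 and 88.6, FGFR1, a fibroblast growth factor receptor, at 86.0 and 94.4, and RYK, a WNT co-receptor, at 86.7 and 85.7. EPHA2 stood above RYK in both arrays, while the FGFR1 values overlap with both. The next gene, TYRO3 of the AXL family, lay apart at 71.6 and 79.3. DDR2, a collagen receptor, lay at 75 and 62.4, PDGFRA at 71.9 and 59.3 and EPHB4 at 69.6 and 64.3. The remaining ERBB members lay lower, with ERBB4 at 49.5 and 50.5 and ERBB3 at 34.7 and 39.0. IGF1R lay at 58.4 and 51.9 and INSR at 45.2 and 31.5. Of the fibroblast growth factor receptors, FGFR2, FGFR3 and FGFR4 lay at 39.1 and 35.5, 14.9 and 32.7, and 18.3 and 22.1, all below both FGFR1 values. Receptors of blood vessels and blood cells were dim: KDR lay at 8.2 and 23.2, TIE1 (both also among the tissue-restricted genes) at 1.4 and 1.0 and KIT at 23.8 and 27.4. Among receptors with WNT or ephrin ligands, PTK7 lay at 65.3 and 65.7 and ROR1 at 52.7 and 59.0, but ROR2 at 26.5 and 3.1 and EPHA3 at 10.1 and 20.2. RET and the neurotrophin receptors NTRK2 and NTRK3 lay at 67.4 and 52.4, 53.7 and 65.0, and 61.1 and 63.6. The third AXL family member, MERTK, lay at 38.8 and 39.3. PDGFRB (52.6 and 21.1) and CSF1R (9.3 and 41.0) differed most between the arrays.

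Among 43 growth factors and cytokines 8 lay at or above 75 in both arrays (18.6%, against 27.0% of all genes). TGFB1 lay at 90.1 and 88.5, EFNB2, a ligand of EPH receptors, at 87.3 and 91.1, GAS6, the ligand of AXL, at 87.1 and 85.4, PTN, pleiotrophin, at 87.7 and 83.2, and PDGFC at 84.0 and 86.0. The second probe sets of TGFB1 and GAS6 were dim, at 11.5 and 16.8 and at 23.0 and 38.9. Ligands of EGFR were spread out: HBEGF lay at 78.2 and 90.9, TGFA at 54.5 and 49.5, EGF at 32.7 and 29.9 and EREG at 0.1 and 1.2. HGF, the ligand of MET, lay at 45.5 and 45.2. INHBA and BMP4, of the TGF-beta family, lay at 16.6 and 7.9 and at 11.4 and 8.7. The chemokines CCL2 and CXCL12 differed most, at 85.6 and 17.7 and at 83.6 and 47.1.

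Of 33 nuclear receptors with a value, 4 lay at or above 75 in both arrays (12.1%, against 27.0% of all genes), 13 above the tissue-restricted range (39.4%, against 50.6%) and 14 below 50 in both (42.4%, against 38.9%). NR3C1, the glucocorticoid receptor, read 1129.9 and 473.8 intensity units and lay at 93.5 and 90.9, with all 4 of its probe sets at or above 75. ESRRA, an orphan receptor of energy metabolism, lay at 82.6 and 83.0, NR2F6 at 84.3 and 79.9 and RXRB, a shared dimer partner, at 78.2 and 76.1. NR2F6 and RXRB each had 2 of 3 probe sets below 50 in both arrays. The other retinoid receptors were spread out, with RARB at 81.8 and 68.8, RXRA at 77.5 and 69.1, RARG at 71.1 and 65.2 and RXRG at 39.0 and 26.9. RARA lay at 57.1 and 54.0, near the medians of all genes (56.8 and 57.0). Below 50 in both arrays were 2 of 5 probe sets of RARB, 1 of 2 of RXRA, 1 of 3 of RARG and 3 of 4 of RARA. PPARG lay at 82.3 and 63.9, PPARD at 72.4 and 75.1 and PPARA at 46.3 and 36.3. The vitamin D receptor VDR lay at 53 and 62.0. The steroid receptors apart from NR3C1 were dim: ESR2 lay at 38.9 and 50.1, NR3C2, the mineralocorticoid receptor, at 44.2 and 45.6 and PGR at the bottom. NR2F1 (93.4 and 70.5) and RORB (41.1 and 1.7) differed most. NR5A1, the steroidogenic factor SF-1, was among the lowest, at 6.8 and 6.1. The thyroid hormone receptors THRA and THRB lay at 42.8 and 35.3 and at 60.3 and 55.3, and the immediate-early receptor NR4A1 at 50.7 and 47.6. NR1D2, a clock gene, was the reverse of NR2F1, at 73.2 and 88.5.

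**Figure D3:**
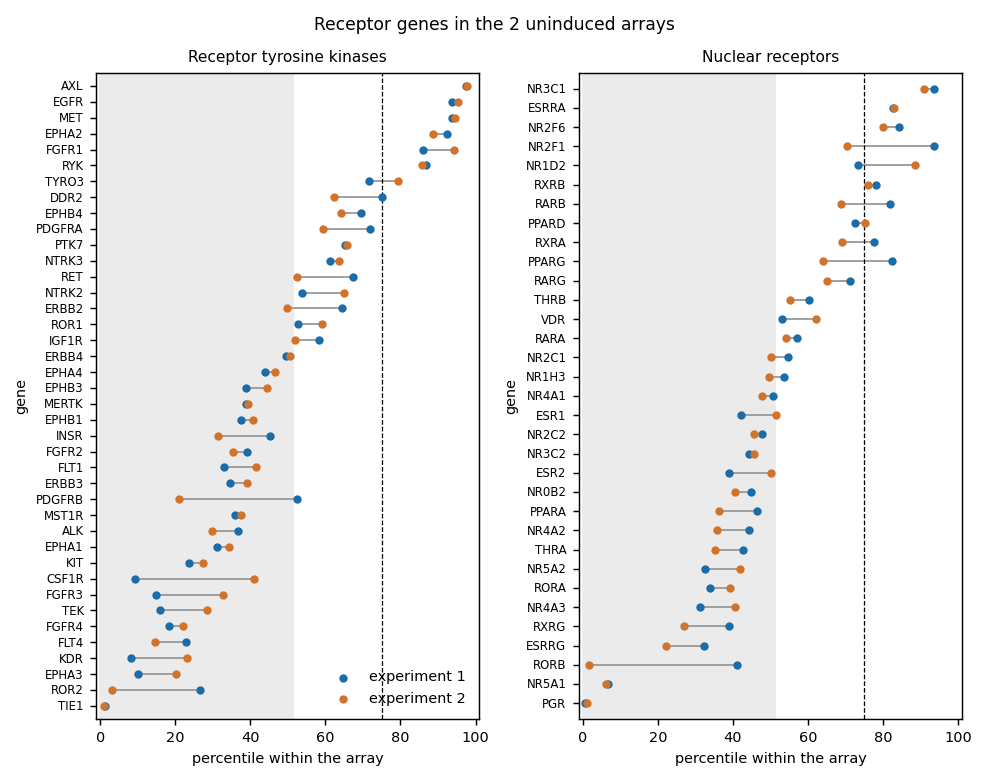
Percentile within the array (horizontal axis) of 40 receptor tyrosine kinases (left) and 33 nuclear receptors (right), ordered by mean, blue for experiment 1 and orange for experiment 2; grey marks percentiles up to 51.3 and the dashed line percentile 75. AXL, EGFR, MET, EPHA2, FGFR1 and RYK on the left and NR3C1, ESRRA, NR2F6 and RXRB on the right lie beyond 75 in both arrays.

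In the RAS and MAP kinase list 17 of 31 genes lay at or above 75 in both arrays, against 27.0% of all genes. HRAS lay at 94.6 and 94.8, the adaptor SHC1 at 97.8 and 95.0, the kinase MAP2K2 at 94.4 and 95.9 and the phosphatase PTPN11 at 94.2 and 95.7. FOSL1, an AP-1 subunit that rises with MAP kinase activity, lay at 95.6 and 97.3, and PHLDA1, another gene responsive to that pathway, at 96.5 and 94.0. At the other end NF1, the brake on RAS, lay at 22.4 and 7.6, the docking protein GAB1 at 36.7 and 37.7 and the scaffold KSR1 at 36.9 and 40.0. The feedback inhibitor SPRY1 and the kinase MAPK3 (ERK1) differed most, at 67.8 and 49.8 and at 49.6 and 31.9.

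Of 28 genes of the TGF-beta and BMP pathway, 12 lay at or above 75 in both arrays (42.9%, against 27.0% of all genes). LTBP1, which tethers latent TGF-beta to the matrix, lay at 94.4 and 93.8, the type II receptor TGFBR2 at 91.1 and 88.9, and SMAD3 and SMAD2, its transducers, at 93.2 and 88.9 and at 89.4 and 87.3. ID3, a BMP target, lay at 88.8 and 92.0. SKIL, a repressor of SMAD activity, lay at 50.8 and 28.9. TGFBR3 and BMPR1B were dim, at 40.0 and 36.1 and at 18.2 and 36.3. In the WNT and NOTCH list 9 of 37 did so, a share of 24.3% and thus near that of all genes. DKK1, a secreted WNT antagonist, lay at 97.8 and 94.0, RBPJ, the DNA-binding partner of NOTCH, at 95.6 and 95.6, the frizzled receptor FZD6 at 95.0 and 92.7 and NOTCH2 at 93.4 and 94.1. NOTCH1 lay at 26.2 and 49.5, and WNT7A and WNT11 at 25.5 and 19.4 and at 6.4 and 5.4. DVL3, which relays frizzled signals, lay at 91.9 and 88.5, the NOTCH-modifying enzyme LFNG at 16.0 and 10.9, and AXIN1, a scaffold of the beta-catenin destruction complex, at 39.9 and 71.4. The PI3 kinase and mTOR list had 5 of 23 at or above 75, a share of 21.7%, with the GTPase RHEB at 97.7 and 98.0 and EIF4EBP1, a translation inhibitor, at 91.6 and 87.1, and IRS2 the lowest at 42.8 and 35.3. The phosphatase INPPL1 lay at 84.2 and 83.4, the factor FOXO3 at 75.7 and 82.2 and the catalytic subunit PIK3CB at 78.9 and 74.8. MTOR itself lay at 51.1 and 54.4 and the phosphatase INPP4B at 57.2 and 50.2. The subunits PIK3CD and PIK3R3 differed most, at 51.6 and 66.5 and at 71.3 and 56.5.

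Genes of cell division were bright. Of 40 mitosis genes, 32 lay at or above 75 in both arrays (80%, against 27.0% of all genes), with a median of 86.7 and 89.2. Above the tissue-restricted range were 39 (97.5%, against 50.6%), and 0 lay below 50 in both, against 38.9% of all genes. PTTG1, securin, lay at 98.6 and 99.0, UBE2C, an enzyme that marks mitotic proteins for destruction, at 95.5 and 97.1, and the spindle protein PRC1 at 95.0 and 97.0. BUB3, of the spindle checkpoint, lay at 96.0 and 97.9 and CKS2, a cyclin kinase subunit, at 96.8 and 95.5. MKI67, the proliferation antigen, lay at 86.6 and 90.2. The lowest were CDC25A and CDC25C, phosphatases that activate cyclin kinases, at 50.7 and 61.8 and at 57.3 and 65.1, and the kinetochore motor CENPE at 58.5 and 65.2. The mitotic kinases AURKB and PLK1 differed most, at 73.1 and 87.1 and at 75.3 and 87.7. Of 41 genes of G1 and DNA replication, 25 lay at or above 75 in both arrays (61.0%, against 27.0% of all genes). RRM2 and RRM1, of ribonucleotide reductase, lay at 96.7 and 98.9 and at 94.0 and 95.6, and TYMS, thymidylate synthase, at 96.8 and 98.7. MCM2, of the replicative helicase, lay at 94.3 and 95.8. Of the factors that load it, CDT1 and ORC1 differed most, at 53.1 and 69.2 and at 45.6 and 60.5. E2F5, a repressor E2F, lay at 28.2 and 28.5. Within the G1 kinases CDK4 lay at 96.5 and 96.8 and CDK6 at 22 and 22.1, and within the D cyclins CCND1 lay at 86.0 and 85.5 and CCND2 at 37.5 and 36.6. These 4 genes moved by under 1 point between arrays.

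Among 26 cyclin kinase inhibitors and genes of the RB and p53 pathways, 5 lay at or above 75 in both arrays. That share, 19.2%, is below the 27.0% of all genes. GADD45A, a stress gene that p53 can switch on, lay at 94.3 and 97.3 and CCNG1, another p53 target, at 96.3 and 91.0. CDKN3, a phosphatase of cyclin kinases, lay at 88.1 and 94.3, the antiproliferative BTG1 at 81.4 and 87.1 and the stress gene GADD45B at 73.7 and 86.2. The inhibitors ranged widely, with CDKN1B at 80.0 and 68.6, CDKN1A at 66.6 and 76.3, CDKN2A at 47.6 and 52.4 and CDKN2B at 3.5 and 9.7. MDM4 lay at 30.3 and 32.2 and TP73 at 24.9 and 5.7. Of 32 apoptosis genes 12 lay at or above 75 in both arrays (37.5%, against 27.0% of all genes). CYCS, cytochrome c, lay at 98.4 and 98.8 and BIRC2, an inhibitor of apoptosis, at 90.6 and 94.3. MCL1, an anti-apoptotic BCL2 relative, lay at 90.9 and 93.4, while BIK and BCL2A1 lay at 21.1 and 21.5 and at 29.3 and 19.2. DIABLO, which blocks inhibitors of apoptosis, lay at 89.9 and 92.4, PMAIP1 (NOXA) at 86.5 and 92.3 and the death ligand TNFSF10 (TRAIL) at 27.2 and 28.2. CASP1 and the receptor TNFRSF1A differed most, at 83.6 and 70.3 and at 89.1 and 77.2. In the HOX list 2 of 29 genes with a value lay at or above 75 in both arrays (6.9%, against 27.0% of all genes). Above the tissue-restricted range were 10 (34.5%, against 50.6%), and 18 lay below 50 in both arrays (62.1%, against 38.9%). A further 13 listed genes were not analysed. The brightest were HOXC10 (88.4 and 87.2) and HOXC6 (80.9 and 83.5), followed by the HOX partners MEIS2 (81.5 and 70.1) and PBX3 (69.5 and 77.7) and by HOXC4 (70.6 and 68.3). HOXB8, HOXD10 and HOXD12 were lowest, at 4.7 and 10.7, 4.1 and 4.4, and 4.0 and 2.4. HOXD11 and HOXC5 differed most, at 9.0 and 32.3 and at 38.8 and 60.6.

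**Figure D4:**
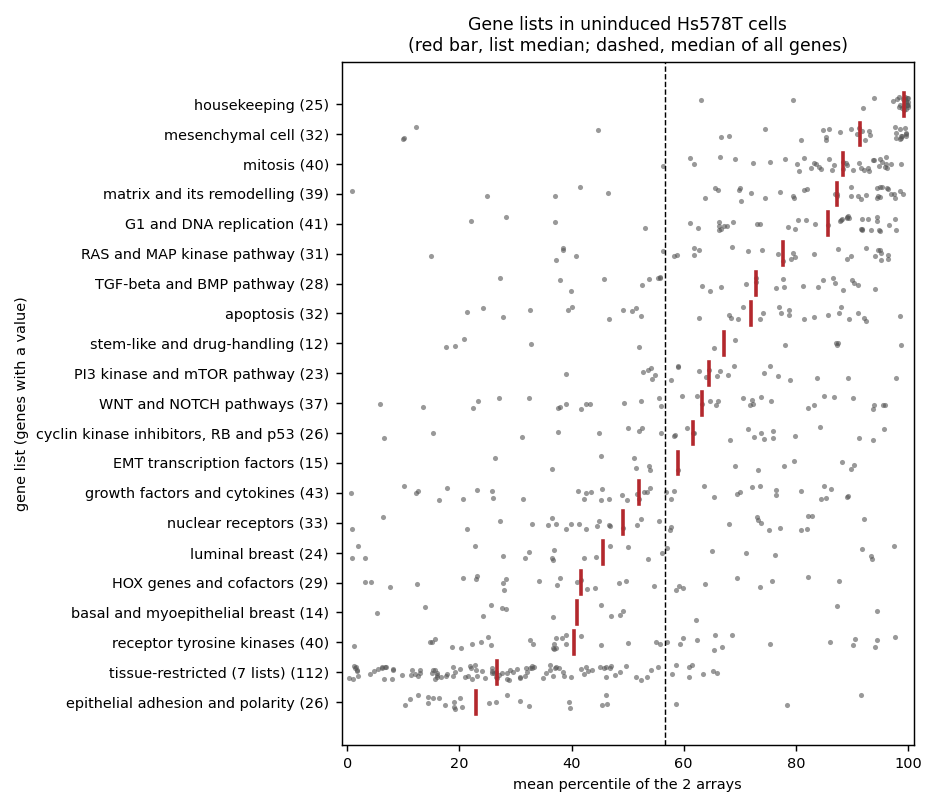
Mean percentile of the 2 arrays (horizontal axis) for every gene with a value in 20 lists and in the 7 tissue-restricted lists joined (vertical axis, ordered by median, number of genes in brackets); points are genes, red bars list medians, and the dashed line is the median of all genes (56.6). Housekeeping, mesenchymal, mitosis and matrix genes have the highest medians, and genes of epithelial adhesion and polarity the lowest.

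At the top of both arrays stood the common high-abundance genes. Of 25 housekeeping genes 24 lay at or above 75 in both arrays, with TBP, a general transcription factor, the exception at 61.8 and 64.5. The next lowest were the lysosomal enzyme GUSB at 82.1 and 76.7 and SDHA, of respiratory complex II, at 91.9 in each array. Of the 20 genes with the highest mean percentile, 10 encode ribosomal proteins (RPL37A, RPS23, RPL41, RPS10, RPS15, RPL23A, RPL7, RPS18, RPL8 and RPL32), and PPIA, ACTB, TUBA1B, EEF1A1, TPT1, GAPDH, TUBA1C, CFL1 and LGALS1 were others. HUWE1, a ubiquitin ligase, stood among them on 1 probe set (99.8 and 99.7), while its other probe sets lay at 90.7 and 87.7, 23.9 and 7.9, and 4.5 and 14.2. VIM was close behind, with a mean of 99.7 ± 0.23 (SD, n = 2).

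The arrays also differed from each other, in part by whole lists. Of the matrix genes 31 of 39 stood higher in experiment 1, as 48.1% of all genes did. In experiment 2 33 of 40 mitosis genes and 34 of 41 genes of G1 and replication stood higher, as did 51.8% of all genes. The median of experiment 1 minus experiment 2 was 3.02 points for the matrix list and -1.76 points for mitosis. Shifts of that size were not limited to these lists: the median was 3.09 points for nuclear receptors, of which 22 of 33 stood higher in experiment 1, and -3.39 points for the cyclin kinase inhibitor list, of which 17 of 26 stood higher in experiment 2. Single matrix genes moved much further. POSTN, periostin, read 2534.6 and 34.2 intensity units (97.5 and 42.5), and COL3A1, a fibrillar collagen of stroma, 888.1 and 23.8 (91.6 and 36.0). Of the other COL3A1 probe sets 2 moved the same way, at 90.5 and 23.1 and at 76.5 and 13.4, and 1 was dim in both arrays (7.8 and 17.9). The second probe set of POSTN was dim as well, at 2.2 and 4.1. CCN2, a TGF-beta and YAP target, lay at 94.2 and 54.9. TNC, tenascin C, was opposite, with 12.1 and 197.6 intensity units (14.7 and 78.1), but on 1 of its 2 probe sets. Percentiles more than 20 points apart were found for 6 of 39 matrix genes and 0 of 40 mitosis genes, against 5.22% of all genes. Bright genes moved less in general, so the share over all genes is no matched background for these bright lists. The 90th percentile of the difference was 7.73 points for genes with a mean of at least 75 and 19.8 points for those below 50. FABP4, given above among the adipocyte genes, stood higher in the same array as POSTN and COL3A1, and the part of other cells in these differences was not tested.

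**Figure D5:**
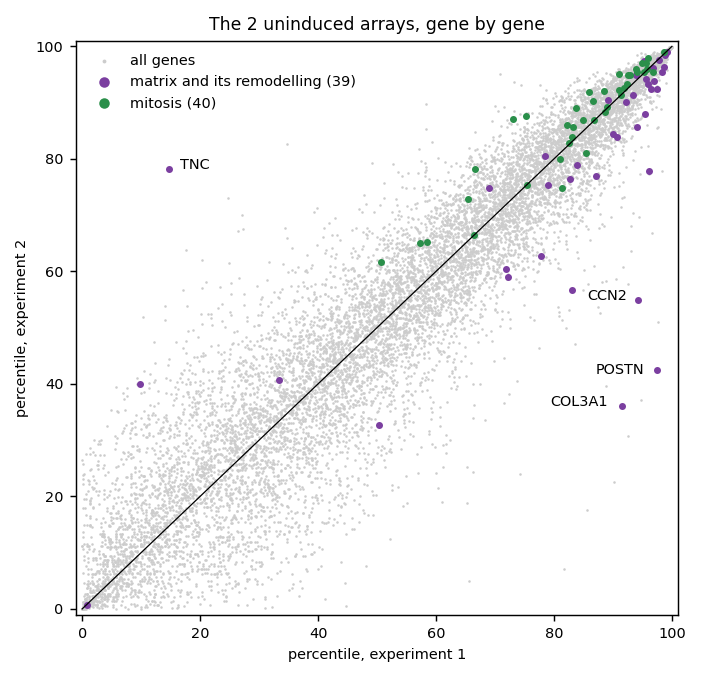
Percentile in experiment 1 (horizontal axis) against experiment 2 (vertical axis) for 11963 genes (grey), 39 matrix genes (purple) and 40 mitosis genes (green), with the line of equal position. POSTN, COL3A1 and CCN2 lie far below the line and TNC above it, while mitosis genes lie close to it, 33 of them on the side of experiment 2.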

How the data were processed

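The deposited table holds 1 linear, positive intensity per probe set and array, as the authors gave it; array medians differ, and the software behind it was not given in the sources used here. Only the 2 columns of the 0 h samples were used. The 68 Affymetrix controls were left out and the other 22215 probe sets were ranked within each array, ties at their average rank. Of these, 19065 carry 1 symbol in the platform's probe table, 1043 several and 2107 none; 19053 symbols were updated through Entrez numbers (GRCh38.p14 gene table). Probe sets with several symbols name no gene. Of 782 listed genes 689 had a value; the others were not analysed here, and 1 list of signalling genes is not reported here.

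The members, the 27 lists (20 described, 7 tissue-restricted) and the limits (percentiles 75 and 50, 90th percentile of the tissue-restricted genes) were chosen with earlier results of these data known. Genes were named by rule: all markers; any of the factors of the transition, luminal, basal and receptor genes, a free choice within those lists; of the other described lists the 5 highest, 3 lowest and 2 most different; the 20 highest of all. The following were chosen after their values were seen: ACTA2, AP1M2, CALD1, CCN2, CCND1, CD24, CDH11, CDKN1A, CDKN1B, CDKN2A, CLDN4, CLDN7, CRB3, DSP, EGF, ELF3, EPCAM, ESRP1, HBEGF, HGF, HRAS, MKI67, MMP14, MMP2, POSTN, SPINT1, TGFA, TPM1, TPM2, the tissue-restricted genes named, the promoters shown and the genes of the closing section. Ranking, choice of probe set and calls were tested on simulated data. Python 3.11.15, pandas 2.3.3 and scipy 1.17.1 were used. The number of arrays, 2, limits the precision.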

Additional observations from a re-analysis of the deposited data

How the results depend on the processing

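Of 225 counts recomputed under other settings, 180 stayed within 1.5 times the reported count. Leaving out probe sets whose names end in _x_at or _s_at removes genes as well as probe sets (8369 remain, with 19.9% at or above percentile 75 in both arrays). Counts at or above 75 were then 13 of 19 mesenchymal, 12 of 27 matrix, 17 of 26 mitosis, 8 of 10 housekeeping, 6 of 20 TGF-beta, 6 of 23 apoptosis, 5 of 29 WNT and NOTCH, 4 of 36 growth factor, 2 of 28 receptor tyrosine kinase, 2 of 23 nuclear receptor and 2 of 16 PI3 kinase genes, and 1 each of 10 transition factors, 15 epithelial, 12 basal, 18 cyclin kinase inhibitor and 22 HOX genes. Above the tissue-restricted range were then 4 transition factors, 1 epithelial, 8 receptor kinase, 5 HOX and 21 mitosis genes, with 4 mitosis genes below 50. Of all genes left, 44.0% were above that range and 48.1% below 50 in both arrays. FN1 fell to 38.3 and EGFR to 55.1 on the probe sets left.

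With the median over a gene's probe sets, 21.1% of all genes lay at or above 75 in both arrays. Counts were then 2 of 15 transition factors, 1 of 26 epithelial, 1 of 14 basal and 3 of 40 receptor kinase genes. For growth factors the count was 2 of 43, for nuclear receptors 1 of 33, for PI3 kinase genes 3 of 23 and for WNT and NOTCH genes 5 of 37. Above the range were 9 of 40 receptor kinases (49.6% of all genes), and below 50 were 17 of 24 luminal and 2 of 40 mitosis genes (44.9% of all genes). ESR1 was then at 23.1 and ERBB2 at 41.5. With percentiles among genes, 1 epithelial and 3 PI3 kinase genes were at or above 75. With the mean of scaled intensities 7 of 33 nuclear receptors were at or above 75, against 30.4% of all genes. A limit of 66.7 was reached in both arrays by 36.4% of all genes. It was reached by 7 of 15 transition factors, 9 of 33 nuclear receptors, 8 of 23 PI3 kinase and 15 of 37 WNT and NOTCH genes. Of the other lists, 10 of 26 cyclin kinase inhibitor, 20 of 32 apoptosis and 5 of 29 HOX genes reached it. With 1 array alone, 6 to 8 of 33 nuclear receptors and 7 to 8 of 26 genes of the cyclin kinase inhibitor list were at or above 75. Of all genes 30.3% were, with either array. With the maximum of the liver list as the limit, the counts above the range stayed within 1.5 times. No paired analysis was possible because the results describe 1 group and come from no test.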

Other observations

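A total of 13 genes lay at or above percentile 75 in experiment 1 and below 50 in experiment 2, and 3 the other way; these genes were picked after their values were seen. Besides POSTN, COL3A1, FABP4, CCL2 and CXCL12, the first group held CEMIP, a hyaluronan-degrading protein (92.5 and 30.8), CFI, the complement regulator factor I (90.5 and 43.4), CREB3L1, a membrane-bound factor that can raise collagen synthesis (90.2 and 22.6), and PLK2, a polo-like kinase that p53 can switch on (88.9 and 39.7). TNS3, a tensin of focal adhesions, had the largest drop in position, with 420.5 intensity units in experiment 1 and 2.7 in experiment 2 (81.7 and 7.2). The others were SLC12A8, a membrane transporter (83.3 and 37.0), ITGBL1, an integrin-beta-like secreted protein (82.1 and 49.9), and ERMP1 (77.4 and 46.5).

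The 3 genes on the other side were TNC, KLHL21, an adaptor of a ubiquitin ligase needed in mitosis (34.8 and 82.6), and CYLD, a deubiquitinase that restrains NF-kB (49.1 and 79.2, the brightest of its 7 probe sets).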
